A study of Mus musculus with 12 samples.

Results

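The actin isoforms are the 6 conventional actin genes of the mouse, Actc1, Acta1, Acta2, Actg2, Actb and Actg1, chosen by name among 37287 genes listed in the count tables. All 6 are listed for all 12 libraries, though Actc1 had no count in 3 of them. Poly(A) RNA was sequenced from embryonic fibroblasts that carry the MyoD-/-; Myf5-/- genotype in every group, so that neither of the muscle-determining transcription factors is supplied by the cells. The cells were infected for 24 h with lentivirus in the presence of polybrene at 8 µg per ml, then kept for 20 h in differentiation medium and harvested. The groups were MyoD virus (2 libraries, of doses labelled 2x and 1x), Myf5 virus (2 libraries, 2x and 1x), a library without virus, and GFP virus (1 library at 1x and 4 at a multiplicity of infection, MOI, of 15, 30, 60 and 120). A separate table added 1 library of a Chimera virus, the design of which the labels do not state, and 1 library with MyoD from a second batch of virus at the 1x dose.

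Actin is the protein of the thin filament in muscle and of the microfilaments in every cell, and mammals make it from separate genes for each tissue. Actc1 encodes cardiac alpha-actin, which is also the main striated actin of embryonic skeletal muscle, and Acta1 encodes the skeletal alpha-actin that takes over as skeletal muscle matures. Acta2 encodes the alpha-actin of vascular smooth muscle, which activated fibroblasts also make, Actg2 encodes the gamma-actin of visceral smooth muscle, and Actb and Actg1 encode the cytoplasmic beta- and gamma-actins.

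The proteins differ mostly at their amino-terminal end, so the first 36 coding bases of each gene are shown here because they set the isoforms apart. The sequences come from the GENCODE vM21 transcripts, run 5′ to 3′ from the start codon, and carry in capitals the codons between the start codon and a stretch of alanine, leucine and valine codons that all 6 share.
Actc1: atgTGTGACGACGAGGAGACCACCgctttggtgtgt
Acta1: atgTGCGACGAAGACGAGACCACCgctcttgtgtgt
Acta2: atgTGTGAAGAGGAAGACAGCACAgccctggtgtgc
Actg2: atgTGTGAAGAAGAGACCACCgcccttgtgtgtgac
Actb: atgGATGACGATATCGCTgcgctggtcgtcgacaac
Actg1: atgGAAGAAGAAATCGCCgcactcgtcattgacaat
The capitals cover 7 codons in Actc1, Acta1 and Acta2, 6 in Actg2 and 5 in Actb and Actg1. Over the whole coding sequence the pairs of genes were 81.5% to 88.6% identical, with Actb and Actg1 the closest pair and Actc1 and Acta1 at 86.3%. Exact stretches of 50 bases that a second actin transcript also holds made up 0% of Actc1 and Actg2, 0.352% of Acta2, 1.94% of Actg1, 2.00% of Acta1 and 2.57% of Actb. At 100 bases no stretch was shared. How the counting treated reads that match more than 1 gene is not given. The values as deposited were whole for Actc1, Acta1, Acta2 and Actg2 in every library, while those of Actg1 were not whole in 10 of the 10 libraries of the first table and those of Actb in 5 of them, so levels of these cytoplasmic actins carry that uncertainty.

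The deposited counts summed to 68.3 to 81.5 M (M, mega) in the 6 libraries of the first table outside the MOI series, 17.9 to 22.4 M in the 4 MOI libraries, 25.1 M in Chimera and 23.7 M in second-batch MyoD. Myod1 was at 617 and 309 CPM (counts scaled to a library total of 1 M) in 2x and 1x MyoD, against 5.21 to 5.99 CPM in the other libraries of the first table. Myf5 was at 249 and 149.5 CPM in 2x and 1x Myf5, against 11.9 to 24.4 CPM in the other libraries of that table. Fibroblast markers were high throughout, with a sum over 9 genes of 11349 to 15540 CPM with MyoD, 14723 to 17672 CPM with Myf5, 20985 CPM without virus and 20197 to 21637 CPM with GFP. Of these 9 markers, 5 were lower with MyoD (8 over 1x GFP alone), 2 were lower with Myf5 (0 over 1x GFP alone) and none was higher. Over all genes tested, 20.9% were lower with MyoD (15.4% over 1x GFP alone) and 2.29% with Myf5 (0.152% over 1x GFP alone). The part of these markers in the actin results was not tested. The 4 MOI libraries differed from 1x GFP in many genes (12.1% of those tested higher and 12.2% lower), so values against 1x GFP alone are given beside those against all 5 GFP libraries. For single genes named from the lists, the values with MyoD are those over all 5 GFP libraries only. No dose of a virus is labelled as repeated within a table, and nothing says that libraries came from separate cultures. The p-values therefore measure a spread between libraries that also holds dose.

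Both striated actins were nearly absent from control fibroblasts and high with MyoD. Actc1 (ENSMUSG00000068614.7) stood at 458 CPM in 2x and 122 CPM in 1x MyoD, against 0.331 CPM in 1x GFP, which is 27 counts. It had no count at an MOI of 15, 30 or 120, where 3 counts would be 0.152, 0.168 and 0.150 CPM, and 1 count (0.0447 CPM) at an MOI of 60. The MyoD libraries lay above every GFP library, and the log2 fold change was 10.82 ± 0.87 (SE; edgeR's quasi-likelihood test with Benjamini-Hochberg adjustment over 13825 genes, adjusted p = 7.9e-05). Without 1x GFP, which held 27 of the 28 GFP counts, that value was 14.32, and over 1x GFP alone it was 9.78. Acta1 (ENSMUSG00000031972.3) stood at 104 CPM in 2x and 27.2 CPM in 1x MyoD, against 0.172 CPM in 1x GFP and 0.152, 0.112, 0.134 and 0.150 CPM along the MOI series. Its groups did not overlap either, and its log2 fold change was 8.77 ± 0.68 (edgeR adjusted p = 7.3e-05), or 8.58 over 1x GFP alone. The share of all genes with groups that likewise do not overlap was not counted, for these or the other actins. Of the 6 actins, 5 were called higher with MyoD at an adjusted p under 0.05 and none lower, where 21.4% of genes tested were called higher and 20.9% lower. Libraries of bulk RNA cannot tell more cells that make an actin from more actin RNA per cell.

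The smooth muscle actins were already present in the control fibroblasts and changed less. Acta2 (ENSMUSG00000035783.8) stood at 1046 CPM in 2x and 594 CPM in 1x MyoD, against 436 CPM in 1x GFP and 228, 220.4, 226 and 188 CPM at an MOI of 15, 30, 60 and 120. Both MyoD libraries were above all 5 GFP libraries, but 1x MyoD was close to the library without virus, at 568 CPM. The log2 fold change of Acta2 was 1.71 ± 0.32 over all GFP libraries (edgeR adjusted p = 0.00343) and 0.93 ± 0.28 over 1x GFP alone (edgeR adjusted p = 0.0391). Without 2x MyoD it was 1.22 and no longer passed (edgeR adjusted p = 0.0711). Actg2 (ENSMUSG00000059430.8), the rarest of the 6 per transcript length in the MyoD libraries, stood at 6.05 CPM in 2x and 3.15 CPM in 1x MyoD, against 1.803 CPM in 1x GFP and 1.67, 1.34, 1.34 and 1.99 CPM along the MOI series. Its groups did not overlap, and its log2 fold change was 1.54 ± 0.26 (edgeR adjusted p = 0.00216) and 1.36 ± 0.39 over 1x GFP alone (edgeR adjusted p = 0.0313). Of 7 smooth muscle markers, 4 were tested, and these 4 were higher with MyoD, 3 of them also against 1x GFP alone (over all genes, 21.4% and 15.1% were higher). The smallest p was that of Des, desmin, which skeletal muscle also makes, at 17.9 to 54.6 CPM with MyoD and 0.608 to 1.29 CPM with GFP. The sum of the 7 was 89.3 to 161 CPM with MyoD, 76.3 CPM without virus and 46.4 to 56.3 CPM with GFP. Their part in the Acta2 and Actg2 results was not tested. Myocd, a coactivator among these 7 markers, had no count in the MyoD or GFP libraries. Myh11, the smooth muscle myosin, stood at 0.199 to 0.286 CPM with MyoD and 0.203 to 0.56 CPM with GFP.

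The cytoplasmic actins moved least. Actg1 (ENSMUSG00000062825.8) stood at 1832 CPM in 2x and 1758 CPM in 1x MyoD, against 1538 CPM in 1x GFP and 1194, 1179.7, 1136 and 977 CPM along the MOI series. Beside the library without virus, at 1829 CPM, Actg1 was level in 2x MyoD and lower in 1x MyoD. It was higher over all GFP libraries, with a log2 fold change of 0.62 ± 0.15 (edgeR adjusted p = 0.0106), but not over 1x GFP alone, at 0.23 ± 0.11 (edgeR adjusted p = 0.153), nor without 2x MyoD, at 0.58 (edgeR adjusted p = 0.102). Actb (ENSMUSG00000029580.7) stood at 1479.5 CPM in 2x and 1579 CPM in 1x MyoD, against 1646 CPM in 1x GFP and 1299, 1247, 1242 and 1076 CPM along the MOI series. The MyoD values lay between the 1x GFP library and the MOI libraries, and the log2 fold change of 0.28 ± 0.15 did not pass (edgeR adjusted p = 0.147). Actb was at -0.10 ± 0.10 over 1x GFP alone and passed without 1x GFP, at 0.41 (edgeR adjusted p = 0.00155), so its direction followed the choice of control. Against 1x GFP alone, 4 of the 6 actins were higher with MyoD and none lower, where 15.1% of genes tested were higher and 15.4% lower.

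**Figure D1:**
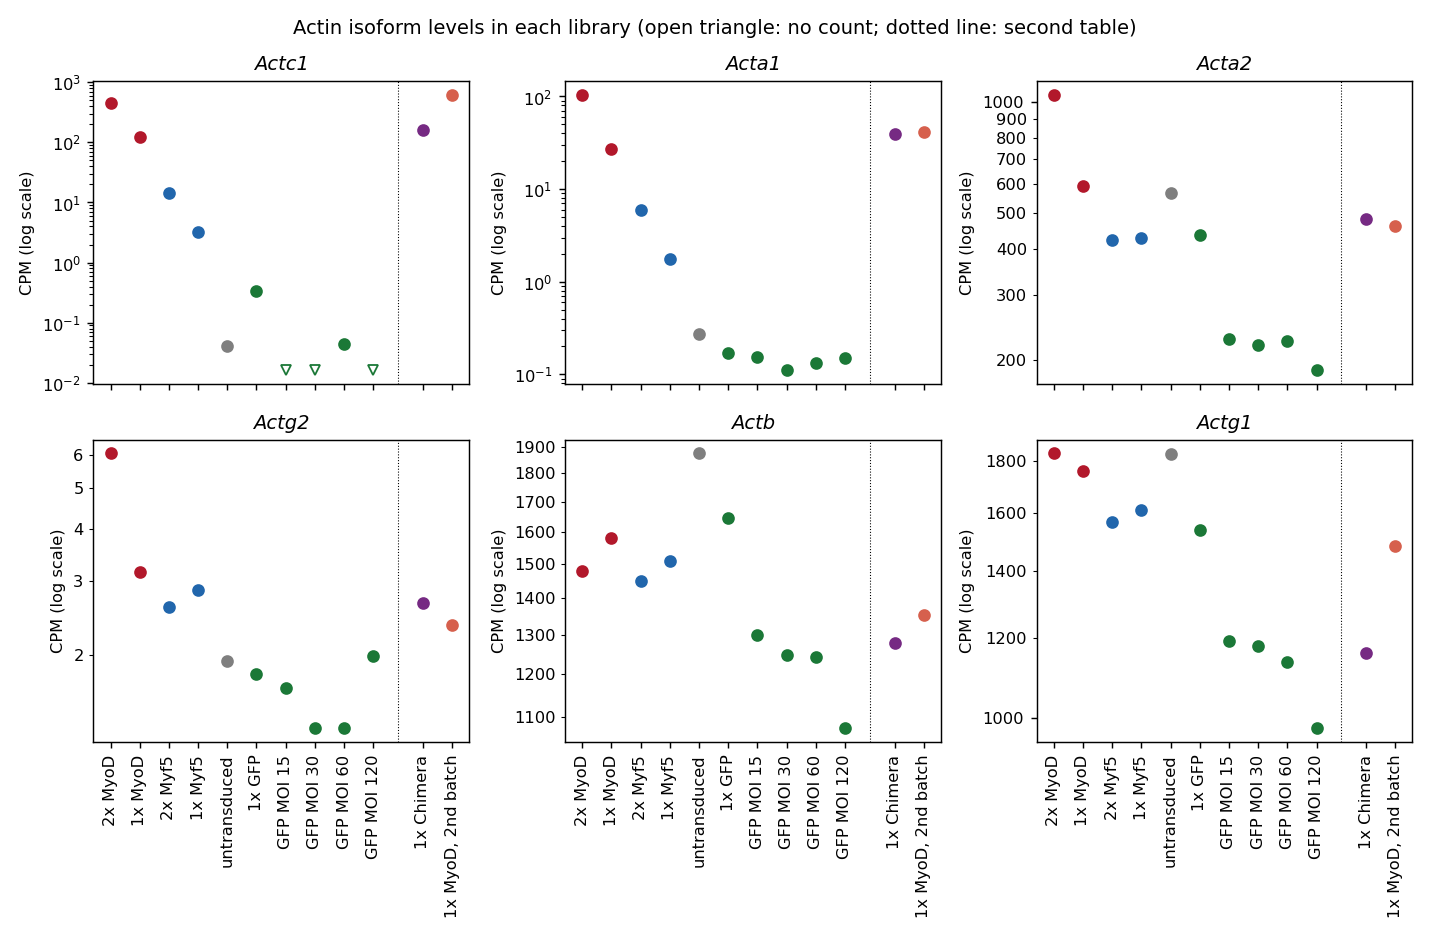
Level of each actin in each library, in CPM on a log scale, with 1 point per library, an open triangle where there was no count, and the second table right of the dotted line. Actc1 and Acta1 reach 458 and 104 CPM in 2x MyoD and lie at or below 0.331 CPM in every GFP library, while Actb lies between 1076 and 1875 CPM in all 12 libraries.

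Myf5 raised the same striated pair to far lower levels. Actc1 stood at 14.2 CPM in 2x and 3.21 CPM in 1x Myf5, against 0 to 0.331 CPM in the 5 GFP libraries, a log2 fold change of 5.73 ± 0.95 (edgeR adjusted p = 0.0129) that became 9.21 without 1x GFP, the control library with 27 of the 28 counts of Actc1. Acta1 stood at 5.93 CPM in 2x and 1.74 CPM in 1x Myf5, against 0.112 to 0.172 CPM with GFP, a log2 fold change of 4.65 ± 0.75 (edgeR adjusted p = 0.0116). Every Myf5 library was above every GFP library for both genes, but the share of all genes that separate likewise was not counted. Neither call held without 2x Myf5, where Actc1 was at 4.29 (edgeR adjusted p = 0.172) and Acta1 at 3.50 (edgeR adjusted p = 0.152). Over 1x GFP alone Actc1 was at 4.69 ± 1.38 (edgeR adjusted p = 0.147) and Acta1 at 4.45 ± 1.30 (edgeR adjusted p = 0.145). Called higher with Myf5 were 2 of the 6 actins, and none was lower, where 3.81% of genes tested were higher and 2.29% lower. Against 1x GFP alone none of the 6 was called, where 1.03% of genes were higher and 0.152% lower.

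The other actins did not pass with Myf5. Acta2 stood at 424 CPM in 2x and 428 CPM in 1x Myf5, beside 436 CPM in 1x GFP and 188 to 228 CPM along the MOI series. Both Myf5 libraries were thus just under 1x GFP and above the MOI libraries, and the log2 fold change was 0.74 ± 0.33 over all GFP libraries (edgeR adjusted p = 0.179), -0.05 ± 0.27 over 1x GFP alone and 1.02 without 1x GFP (edgeR adjusted p = 0.00451). Actg2 stood at 2.61 and 2.86 CPM in 2x and 1x Myf5, above the 1.34 to 1.99 CPM of the GFP libraries, with a log2 fold change of 0.76 ± 0.27 (edgeR adjusted p = 0.111). Actb stood at 1448 CPM in 2x and 1508 CPM in 1x Myf5, inside the GFP range of 1076 to 1646 CPM. Actg1 stood at 1566 CPM in 2x and 1608 CPM in 1x Myf5, just above the GFP range of 977 to 1538 CPM. Their log2 fold changes were 0.21 ± 0.15 for Actb (edgeR adjusted p = 0.363) and 0.43 ± 0.15 for Actg1 (edgeR adjusted p = 0.114), and both passed without 1x GFP, at 0.32 (edgeR adjusted p = 0.0104) and 0.54 (edgeR adjusted p = 0.00162). By DESeq2, Actg1 passed against all GFP libraries (adjusted p = 0.0491). Over 1x GFP alone, however, Actg1 was at 0.03, Actb at -0.17 and Actg2 at 0.59.

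**Figure D2:**
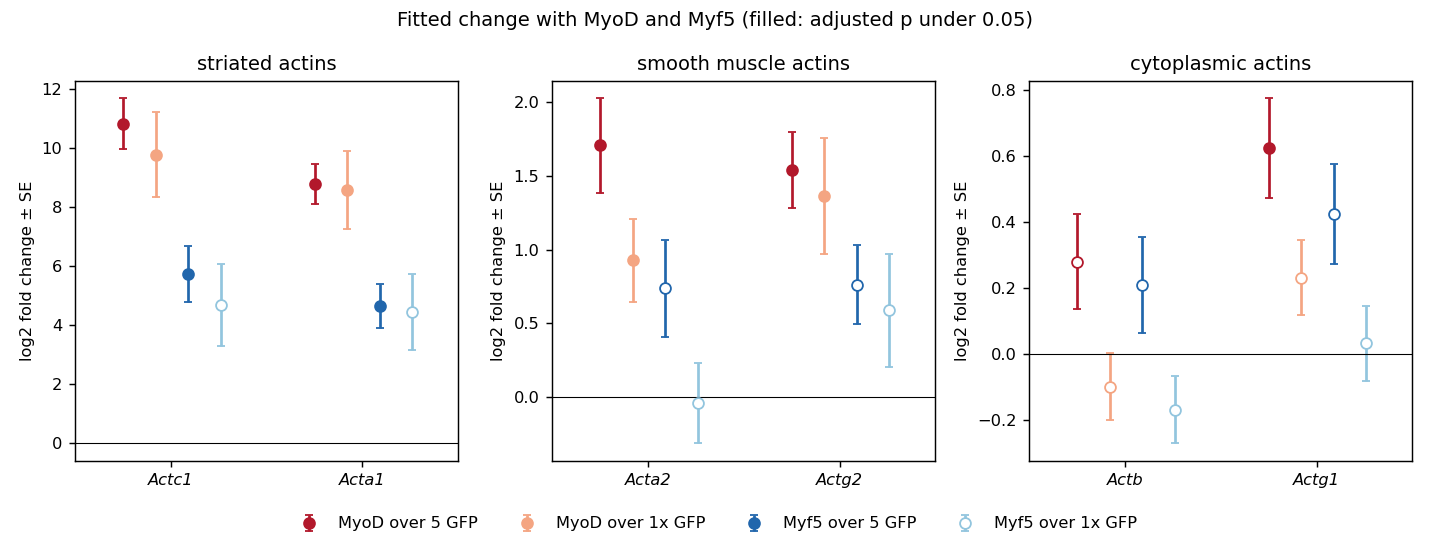
Fitted log2 fold change ± SE of each actin with MyoD (2 libraries) and Myf5 (2 libraries) over all 5 GFP libraries and over 1x GFP alone, filled where the adjusted p was under 0.05. The vertical scales differ between panels, from about 10.82 for Actc1 with MyoD to 0.28 for Actb with MyoD, and points over 1x GFP alone lie below those over all GFP libraries.

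Set directly against Myf5, MyoD gave higher levels of the striated actins only among the 6. The log2 fold change of MyoD over Myf5 was 5.09 ± 0.86 for Actc1 (edgeR adjusted p = 0.0239) and 4.13 ± 0.68 for Acta1 (edgeR adjusted p = 0.0229), where 4.21% of genes tested were higher and 1.29% lower. At each dose the order was the same, since 1x MyoD, at 122 CPM of Actc1 and 27.2 CPM of Acta1, was above 2x Myf5, at 14.2 and 5.93 CPM. The RNA of the factors differed too, with Myod1 at 309 CPM in 1x MyoD and Myf5 at 249 CPM in 2x Myf5. The part of that difference was not tested. With dose as a term in the model the values were 5.15 ± 0.42 for Actc1 (edgeR adjusted p = 0.00063) and 4.08 ± 0.12 for Acta1 (edgeR adjusted p = 4.5e-06). Without that term both calls were lost on leaving out 1x Myf5 (4.41 and 3.53, edgeR adjusted p = 0.198 each), 2x MyoD (3.82 and 2.83, edgeR adjusted p = 0.138 and 0.0947) or 2x Myf5 (6.54 and 5.27, edgeR adjusted p = 0.067 each), and the call of Actc1 also by DESeq2 (adjusted p = 0.0769). Acta2 was at 0.97 ± 0.41, Actg2 at 0.78 ± 0.31, Actg1 at 0.20 ± 0.19 and Actb at 0.07 ± 0.18, and none of these 4 passed (edgeR adjusted p of 0.17 to 0.838). Without 1x MyoD, Actg2 passed at 1.19 (edgeR adjusted p = 0.0218).

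The striated actins differed most between the single libraries of each dose. Going to 2x, Acta1 was 3.83-fold higher with MyoD (95% counting interval 3.65 to 4.02) and 3.40-fold higher with Myf5 (2.77 to 4.21). Actc1 was 3.75-fold higher with MyoD (3.67 to 3.83) and 4.42-fold higher with Myf5 (3.81 to 5.14). Actb and Actg1 kept ratios of 0.937 and 1.04 with MyoD and 0.960 and 0.974 with Myf5. The smooth muscle pair differed by factor in these single libraries, as Acta2 and Actg2 had ratios of 1.76 and 1.92 with MyoD and 0.989 and 0.915 with Myf5. The counting intervals leave out variation between cultures. As a description only, first-batch and second-batch 1x MyoD stood at 122 and 618 CPM of Actc1 and at 27.2 and 41.1 CPM of Acta1. Libraries of the same dose label can thus differ in Actc1 by more than the 2x and 1x libraries did.

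A common dose effect across both factors was called for 3 genes of 13825 (0.0217% higher, 0% lower), and Acta1 was 1 of them, with a log2 difference of 1.88 ± 0.11 (edgeR adjusted p = 0.00102). That call was lost without 1x MyoD (1.78, edgeR adjusted p = 0.152) or 2x MyoD (1.78, edgeR adjusted p = 0.704). The larger difference of Actc1, 2.04 ± 0.37, did not pass (edgeR adjusted p = 0.124). The dose effect of MyoD minus that of Myf5, added after the values were seen, was 0.86 ± 0.82 for Acta2 and 1.09 ± 0.48 for Actg2 on the log2 scale, and no gene passed (edgeR adjusted p = 0.9999 for each actin, 0% of genes called in either direction). A difference between the factors in how these genes follow dose was therefore not detectable.

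**Figure D3:**
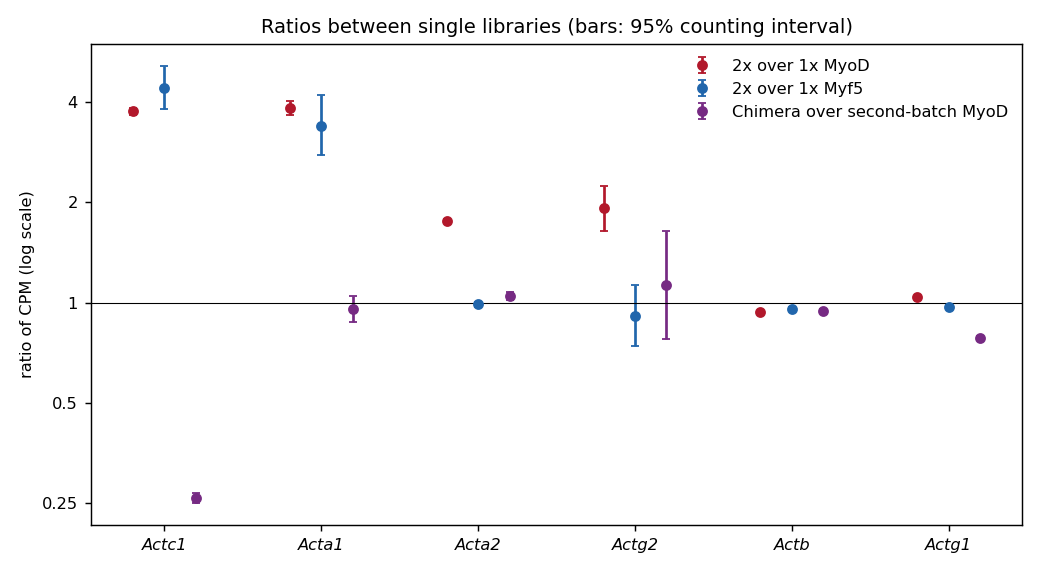
Ratio of CPM between pairs of single libraries for each actin on a log scale, with 95% counting intervals and a line at 1. Actc1 and Acta1 lie between 3.40 and 4.42 for 2x over 1x of both factors, Acta2 at 1.76 for MyoD only, and Actc1 at 0.259 for Chimera over second-batch MyoD.

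The Chimera library was compared with second-batch MyoD, the library with which its virus was balanced, and with 1 library on each side no p-value can be given. The Chimera library held 165 CPM of Myf5 and 22.1 CPM of Myod1, against 14.7 CPM of Myf5 and 324 CPM of Myod1 in second-batch MyoD. Actc1 stood at 160.4 CPM with Chimera, against 618 CPM with second-batch MyoD, a ratio of 0.259 (95% counting interval 0.251 to 0.269). Acta1, by contrast, stood at 39.2 CPM with Chimera and 41.1 CPM with second-batch MyoD, and its ratio of 0.955 had an interval that included 1 (0.873 to 1.04). Actc1 was the single actin past a 2-fold difference, where 2.68% of 13412 genes were at least 2-fold higher and 2.32% at least 2-fold lower with Chimera. Actg1 stood at 1160.2 CPM with Chimera and 1482 CPM with second-batch MyoD (ratio 0.783, interval 0.771 to 0.795), and Actb at 1277 and 1354 CPM (0.943, 0.929 to 0.958). Acta2 stood at 483 CPM with Chimera and 461 CPM with second-batch MyoD (1.05, 1.02 to 1.08), and Actg2 at 2.67 and 2.36 CPM (1.13, 0.780 to 1.64). The summed level of 8 skeletal muscle markers was 639 CPM with Chimera and 1508 CPM with second-batch MyoD.

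Ratios between actins within a library do not depend on library size. The balance of cardiac to skeletal actin, as the ratio of Actc1 to Acta1 counts, was 4.39 in 2x MyoD and 4.49 in 1x MyoD, and 2.39 in 2x Myf5 and 1.84 in 1x Myf5. The ratios of the 2 factors did not overlap, but 2 against 2 libraries cannot give an exact two-sided permutation p below 0.333. Chimera had a ratio of 4.09, against 15.0 in second-batch MyoD. The balance of beta- to gamma-cytoplasmic actin, Actb to Actg1, was 0.807 in 2x MyoD and 0.898 in 1x MyoD, 0.925 in 2x Myf5 and 0.938 in 1x Myf5, 1.02 without virus and 1.06 to 1.10 in the 5 GFP libraries. It was below 1 in all 4 libraries with MyoD or Myf5 of that table and above 1 in the other 6. In each case the exact two-sided permutation p was 0.0952, the smallest that 2 against 5 libraries can give, among 5 ratio tests chosen after the values were seen (0.0952 to 0.333). In the second table the same ratio was 1.10 with Chimera and 0.914 with second-batch MyoD.

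**Figure D4:**
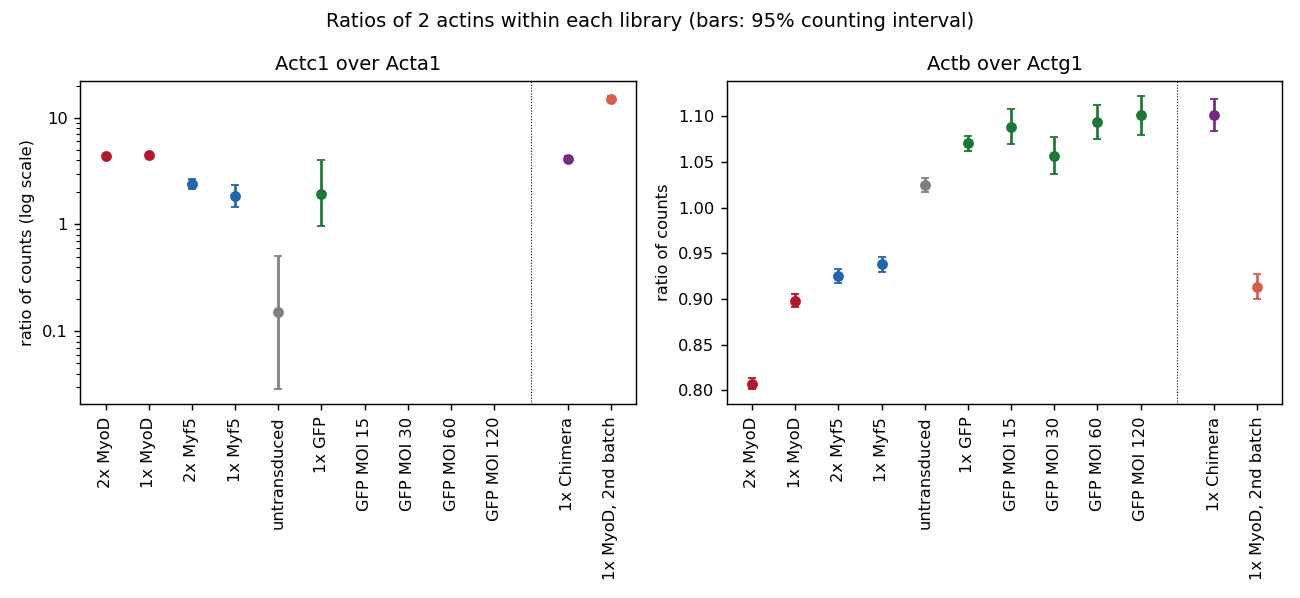
Ratio of Actc1 to Acta1 counts (left, log scale) and of Actb to Actg1 counts (right) within each library, with 95% counting intervals, shown where the pair has at least 20 counts. Actb over Actg1 lies between 0.807 and 0.938 with MyoD and Myf5 and between 1.06 and 1.10 with GFP, while Actc1 over Acta1 reaches 15.0 in second-batch MyoD.

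The make-up of the actin pool was read as the share of all actin counts in each class. Cardiac actin took 9.30% in 2x MyoD and 2.99% in 1x MyoD, 0.409% in 2x Myf5 and 0.0903% in 1x Myf5, and 0% to 0.00914% with GFP. Skeletal actin took 2.12% in 2x MyoD and 0.667% in 1x MyoD, 0.171% in 2x Myf5 and 0.0491% in 1x Myf5, and 0.00423% to 0.00667% with GFP. The muscle actins together were still the smaller part of the pool in all libraries. Smooth muscle actin took 21.4% in 2x MyoD and 14.6% in 1x MyoD, 12.3% in 2x Myf5 and 12.14% in 1x Myf5, 13.3% without virus, 12.07% in 1x GFP and 8.37% to 8.72% in the MOI libraries. Cytoplasmic actin took 67.2% in 2x MyoD and 81.7% in 1x MyoD, 87.1% in 2x Myf5 and 87.7% in 1x Myf5, 86.7% without virus, 87.9% in 1x GFP and 91.3% to 91.6% in the MOI libraries. Groups did not overlap for any class with either factor, but the share of genes that would separate likewise was not counted. Each exact two-sided permutation p was 0.0952, the smallest this design allows. The class shares of a library add up to the whole, so they are not separate results. With Myf5 the smooth muscle and cytoplasmic gaps to 1x GFP were narrow, and the library without virus lay beyond both Myf5 libraries in these classes. All 6 actins made up 0.493% and 0.408% of the counts in 2x and 1x MyoD, 0.346% and 0.355% in 2x and 1x Myf5, 0.427% without virus, 0.362% in 1x GFP and 0.224% to 0.272% in the MOI libraries.

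Per kilobase of transcript, the order of the isoforms in 2x MyoD was Actg1 at 939 CPM per kb, Actb at 771, Acta2 at 514, Actc1 at 311, Acta1 at 72.1 and Actg2 at 4.54 CPM per kb. In 1x GFP it was Actb at 857 CPM per kb, Actg1 at 788, Acta2 at 214, Actg2 at 1.35, Actc1 at 0.225 and Acta1 at 0.119 CPM per kb. The striated actins were thus last in 1x GFP and above Actg2 in 2x MyoD. In second-batch MyoD, of the other table, Actc1 at 420 CPM per kb was above Acta2 at 226 CPM per kb, whereas with Chimera it was below, at 109 against 238 CPM per kb.

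**Figure D5:**
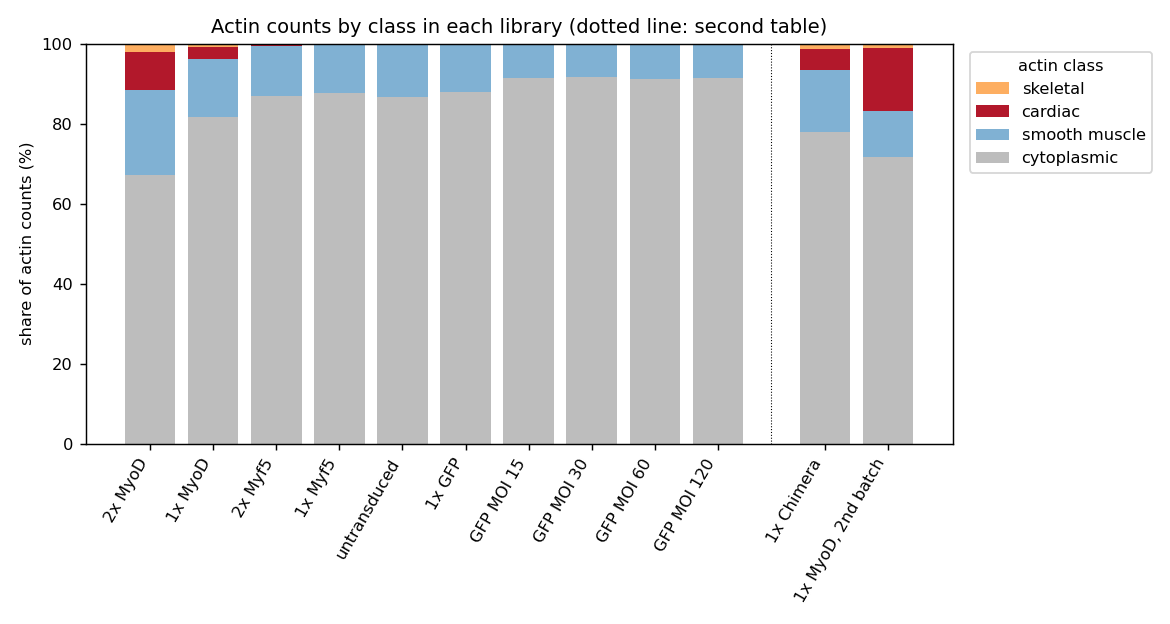
Share of all actin counts, in percent, in cytoplasmic (Actb, Actg1), smooth muscle (Acta2, Actg2), cardiac (Actc1) and skeletal (Acta1) actin, with 1 bar per library and the second table right of the dotted line. The cytoplasmic share is lowest in 2x MyoD, at 67.2%, and highest in the GFP libraries of the MOI series, at 91.3% to 91.6%.

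Without virus the striated actins were also scarce. Actc1 had 3 counts (0.0413 CPM), a ratio to 1x GFP of 0.125 (95% counting interval 0.0242 to 0.405), and Acta1 had 20 counts (0.275 CPM), a ratio of 1.60 (0.769 to 3.43). Acta2 stood at 568 CPM, Actb at 1875 CPM and Actg1 at 1829 CPM without virus, each above all 5 GFP libraries. Their log2 fold changes over GFP were 1.16 ± 0.41, 0.57 ± 0.19 and 0.64 ± 0.19 and did not pass (edgeR adjusted p = 0.105, 0.0888 and 0.0736). None of the 6 actins was called, where 5.83% of genes tested were higher and 2.52% lower. DESeq2 called Actb (adjusted p = 0.0281) and Actg1 (adjusted p = 0.0157), and all 3 passed without 1x GFP (1.46, 0.68 and 0.76, edgeR adjusted p = 0.00216, 0.000947 and 0.000897). Over 1x GFP alone they were at 0.38 ± 0.32, 0.19 ± 0.12 and 0.25 ± 0.13, and again no actin was called, where 3.37% of genes were higher and 1.57% lower.

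Within the MOI series Actb and Actg1 fell slightly. The slope per doubling of MOI was -0.08 ± 0.02 for Actb (edgeR adjusted p = 0.00986) and -0.09 ± 0.02 for Actg1 (edgeR adjusted p = 0.00572) on the log2 scale. Both calls were lost without MOI 120, where the slopes were -0.03 (edgeR adjusted p = 0.699) and -0.04 (edgeR adjusted p = 0.65), and that of Actb also without MOI 30 (-0.08, edgeR adjusted p = 0.0574). Acta2, at -0.08 ± 0.02, missed the threshold (edgeR adjusted p = 0.0548), was at -0.005 without MOI 120 (edgeR adjusted p = 0.981), and passed without MOI 15 (-0.11, edgeR adjusted p = 0.0335), without MOI 60 (-0.09, edgeR adjusted p = 0.00013) or with no filter on low counts (edgeR adjusted p = 0.00271). Actg2 was at 0.09 ± 0.13 and at -0.16 without MOI 120, and Actc1 and Acta1 were too low to be tested. Of 4 actins tested, 2 were lower and none higher, where 3.42% of 13383 genes were lower and 4.06% higher. Taken as a group, the MOI libraries were below 1x GFP in Acta2 (-1.07 ± 0.23, edgeR adjusted p = 0.0144), Actb (-0.49 ± 0.09, edgeR adjusted p = 0.00804) and Actg1 (-0.51 ± 0.10, edgeR adjusted p = 0.00982), a comparison added after the values were seen in which 12.2% of genes were lower and 12.1% higher.

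The proximal promoters are shown for the striated pair, whose levels moved together over the libraries (Pearson r of 0.982 for Actc1 and Acta1 over 10 libraries, as a description), and for Acta2. RefSeq held promoters for 4 of the 6 actins, Actc1, Acta1, Acta2 and Actg1. Each line is the 250 bases before the annotated start on the GRCm38.p6 build, on the minus strand, 5′ to 3′, at chr2:114052876-114053125 for Actc1, chr8:123894776-123895025 for Acta1 and chr19:34255374-34255623 for Acta2. Capitals mark every CANNTG, the E-box letters that MyoD and Myf5 bind, and every CArG box, the site of serum response factor, with at most 1 base off in its core of A and T.
Actc1: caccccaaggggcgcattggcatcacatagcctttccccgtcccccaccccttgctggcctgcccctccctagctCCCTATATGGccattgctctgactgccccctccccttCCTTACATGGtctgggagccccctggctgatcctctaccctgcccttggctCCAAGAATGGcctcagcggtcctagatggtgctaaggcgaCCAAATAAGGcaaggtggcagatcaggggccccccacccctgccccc
Acta1: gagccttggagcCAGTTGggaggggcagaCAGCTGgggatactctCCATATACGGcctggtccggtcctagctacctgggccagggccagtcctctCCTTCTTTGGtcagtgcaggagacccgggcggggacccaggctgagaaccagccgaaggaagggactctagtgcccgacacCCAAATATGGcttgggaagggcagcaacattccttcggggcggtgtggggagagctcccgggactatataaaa
Acta2: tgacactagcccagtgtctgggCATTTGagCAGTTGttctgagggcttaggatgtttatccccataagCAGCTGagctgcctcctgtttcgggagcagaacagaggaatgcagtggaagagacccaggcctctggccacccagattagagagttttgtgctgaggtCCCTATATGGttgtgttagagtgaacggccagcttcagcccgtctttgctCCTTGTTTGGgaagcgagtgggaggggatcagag
Exact CArG boxes numbered 1 in Actc1, 1 in Acta1, 1 in Actg1 and 0 in Acta2, and 1.47% of 32851 promoter windows of that length hold one. With 1 base off in the core allowed, Actc1 had 4, Acta1 had 3, Acta2 had 2 and Actg1 had 1, and 8.59% of windows hold one. CANNTG occurred 3 times in Acta2, 2 times in Acta1, 1 time in Actg1 and 0 times in Actc1, and 66.2% of windows hold it. Acta1 and Acta2 each had 1 CAGCTG, which is counted among the CANNTG and which 13.0% of windows hold. Both strands were searched, and each of these motifs reads as the same motif on the other strand. A match describes letters and is not evidence of binding, and these windows leave out all farther regulatory sequence.

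Genes that make, fold and turn over actin were read beside the isoforms, from lists that were chosen with earlier results of these data known. Of 17 genes for actin folding and modification, which include the subunits of the CCT chaperonin and prefoldin, 10 were higher with MyoD and none lower (5 and 0 over 1x GFP alone), with a median log2 fold change of 0.24 against -0.03 for all genes tested. Over all genes, 21.4% were higher and 20.9% lower (15.1% and 15.4% over 1x GFP alone), and the counts of the lists that follow are to be read against these shares. The smallest p was that of Pdcl3, a phosducin-like cofactor of CCT, at 101 and 129 CPM in the MyoD libraries and 71.1 to 79.0 CPM with GFP (0.69 ± 0.11, edgeR adjusted p = 0.00161). Summed, the 17 folding genes were at 2963 to 3334 CPM with MyoD, 2584 to 2722 CPM with GFP and 2969 CPM without virus. The library without virus was thus inside the MyoD range. Of 17 genes for monomer binding and filament turnover, 7 were higher and 2 lower (5 and 3 over 1x GFP alone, where the median was 0.00), with a median of 0.20. The lower genes were a share below or near that over all genes. Cap2, a cyclase-associated protein of striated muscle that recycles actin monomers, stood at 2.99 to 9.48 CPM with MyoD and 0.478 to 0.608 CPM with GFP (3.64 ± 0.42, edgeR adjusted p = 0.000362). Dstn, destrin, which depolymerizes actin, was lower, at 329 to 335 CPM with MyoD and 380.1 to 399.6 CPM with GFP (-0.17 ± 0.06, edgeR adjusted p = 0.0343). Summed, the 17 turnover genes were at 6372 to 6425 CPM with MyoD, 4917 to 6070 CPM with GFP and 6393 CPM without virus.

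Of 20 filament nucleators tested among 22 written, 5 were higher and 3 lower with MyoD (3 and 5 over 1x GFP alone), with a median of 0.01, and the counts over all GFP libraries are near the shares over all genes. Lmod3, the leiomodin that nucleates thin filaments in skeletal muscle, stood at 3.07 to 13.6 CPM with MyoD and had 4 counts over the 5 GFP libraries (8.37 ± 0.96, edgeR adjusted p = 0.000371). Fhod3, a formin of the sarcomere in heart, was lower, at 2.16 to 2.68 CPM with MyoD and 4.64 to 7.24 CPM with GFP (-1.25 ± 0.20, edgeR adjusted p = 0.00176). Serum response factor, with its cofactors, is a well-known regulator of actin genes. Of 15 genes tested among 18 written for it, its cofactors and its targets, 6 were higher and 3 lower with MyoD (3 and 4 over 1x GFP alone), and the median was 0.30 over all GFP libraries and -0.07 over 1x GFP alone. The lower genes over all GFP libraries and the higher genes over 1x GFP alone were near the shares over all genes. Srf itself stood at 91.8 to 108 CPM with MyoD and 44.7 to 66.4 CPM with GFP (0.99 ± 0.15, edgeR adjusted p = 0.00135), and Cald1, caldesmon, was lower, at 764 to 979 CPM with MyoD and 1136 to 1186 CPM with GFP (-0.35 ± 0.08, edgeR adjusted p = 0.00966).

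With Myf5 few of these genes passed, a share near that over all genes tested, of which 3.81% were higher and 2.29% lower. None of the 17 folding genes passed, and no gene of the folding, turnover, nucleation or serum response factor lists was lower. Higher were Tmsb4x, the monomer-binding thymosin beta-4 (0.81 ± 0.16, edgeR adjusted p = 0.0226), the formin Daam1 (0.29 ± 0.07, edgeR adjusted p = 0.0441), the cofactor Fhl2 (1.03 ± 0.12, edgeR adjusted p = 0.00296) and Srf (0.65 ± 0.15, edgeR adjusted p = 0.0405). Over 1x GFP alone, Daam1 and Fhl2 passed and Tmsb4x and Srf did not, where 1.03% of genes were higher and 0.152% lower. The list medians with Myf5 were 0.07 for folding, 0.17 for turnover, 0.06 for nucleation and 0.28 for serum response factor, against 0.00 for all genes tested. Over 1x GFP alone they lay between -0.02 and 0.02. MyoD exceeded Myf5 in 3 genes of these lists, a share near the 4.21% over all genes tested. Named after their values were seen, they were Lmod3 (4.30 ± 0.89, edgeR adjusted p = 0.0336), Cap2 (2.08 ± 0.49, edgeR adjusted p = 0.0454) and Setd3, the methyltransferase that modifies a histidine of actin (0.65 ± 0.16, edgeR adjusted p = 0.04997).

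The level of each actin was also set against all other tested genes with a mean of at least 5 CPM. By Pearson correlation of log2 CPM over the 10 libraries of the first table, the genes most like Actc1 included Btbd17 (r = 0.995) and the muscle RNA-binding protein gene Rbm24 (0.994). The 3 most like Acta1 were Zfp568 (0.998), St3gal5 (0.997) and the homeobox gene Six4 (0.996). Acta2 was most like Pgp (0.995), Tomm40 (0.993) and Bcar1 (0.991), and Actg2 was most like Fst (0.986), Gtf2e1 (0.983) and Dhx37 (0.976). Actb was most like Tsen34 (0.993), Rps2 (0.991) and Cfl1 (0.991), the last of which encodes the actin-severing protein cofilin. For Actg1 they were Gm23419 (0.998), Eif2a (0.990) and Cdc37 (0.989), and Gm23419 is annotated as a microRNA gene inside Actg1 on the same strand, so reads of both may be the same. The 10 libraries share the split in depth between the MOI series and the rest, and these values are descriptions. On the opposite strand, Acta1 overlaps Gm20388, which stood at 172 to 217 CPM, and Actc1 overlaps A530058N18Rik, at 0 to 0.221 CPM. Whether counting used the strand is not given, and Acta1 stayed at or below 0.275 CPM in the 6 libraries without MyoD or Myf5 virus of that table.

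Heart markers were low in every group. The sum of 9 cardiac markers was 6.46 to 6.53 CPM with MyoD, 6.02 to 6.44 CPM with Myf5 and 6.91 to 11.9 CPM with GFP, and Myl7 and Tbx5 had no count in the first table. Of 8 skeletal muscle markers all 8 were higher with MyoD, where 21.4% of all genes tested were higher. Their sums were 543 to 1698 CPM with MyoD and 2.74 to 3.91 CPM with GFP. With Myf5 the sums were 20.0 to 80.4 CPM, and 4 of the 8 were higher over all GFP libraries and none over 1x GFP alone. Over all genes tested, 3.81% were higher with Myf5, and 1.03% over 1x GFP alone.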

How the data were processed

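Poly(A) RNA-seq libraries were read from 2 deposited gene tables, of 10 and 2 libraries. The submitters' processing notes name CASAVA 1.8.2, TopHat2 2.0.8 and the mm9 build. The sources used here do not name the tool or annotation behind the counts. The 10-library table, as deposited by the authors, holds expected counts, of which 14.6% to 22.2% per library lie in genes with values that are not whole (tolerance 1e-06). These were rounded. The 2-library table, as deposited, holds whole-number counts. Mitochondrial genes (37) hold 4.05% and 4.18% of counts in the 2-library table but none in the other, and each table was analysed by itself. Symbols were matched for 32610 of 37287 IDs through GENCODE vM21, whose longest protein-coding transcript gave lengths.

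In R 4.3.3, edgeR 4.0.16 (TMM, filter of CPM 1 or more in 2 or more libraries, quasi-likelihood test, two-sided, Benjamini-Hochberg adjustment over all genes tested) fitted 1 coefficient per group, and a lone library was taken to vary as replicates elsewhere do. Each SE was derived as the absolute log2 fold change over the square root of the F statistic of its test. It is not a standard error reported by the fit, and is rough where counts are few. DESeq2 1.42.0 was an alternative. The fits were tested on simulated data. Intervals are exact binomial at 95% and cover counting error only, and 3 counts were taken as the floor for a count of 0. Shares and ratios between actins were compared by exact permutation. Genes named were the 6 actins, the 3 genes most correlated with each, and per list the called gene with the smallest p in each direction of MyoD and of Myf5 against GFP. A gene that this rule names is not reported here. The actins, lists and tests were chosen with earlier results of these data known.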

Additional observations from a re-analysis of the deposited data

Results flagged for a closer look

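Of the 5 GFP libraries, the 1x GFP library stood apart from the other 4 in 5 actin measures, by a gap to the nearest library that took most of the group's range. Chance alone would flag about 1 in 20 groups of 5 like libraries. These libraries differ in depth and dose label, so that rate need not hold here, and the measures are not independent of each other. Actc1 was at 0.331 CPM in 1x GFP (27 counts), with the next highest library at 0.0447 CPM (1 count). Acta2 was at 435.5 CPM in 1x GFP, with the next at 228 CPM. The cardiac share of actin counts was 0.00914% in 1x GFP, with the next at 0.00172%, and the smooth muscle share was 12.1%, with the next at 8.72%. The cytoplasmic share was lowest in 1x GFP, at 87.9%, with the next at 91.3%. The 1x GFP library held 81.5 M counts and the MOI libraries 17.9 to 22.4 M, and the part of depth or dose in these differences was not tested.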

How the results depend on the processing

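Counts of genes called moved by more than 1.5 times under several alternatives, and the cause was not tested. With DESeq2 they were 2143 for Myf5 against GFP (843 in the chosen fit), 1750 for MyoD against Myf5 (761), 2512 for the untransduced library against GFP (1154), 284 for dose (3) and 486 for the MOI slope (1002). Over 1x GFP alone they were 163 for Myf5 and 683 for the untransduced library. Dose as a term gave 1400 for MyoD against Myf5, and no filter gave 16 for dose. Leaving out 1 library at a time gave 1833 to 8073 genes for MyoD against GFP (5856), 57 to 5063 for Myf5 against GFP, 2 to 2100 for MyoD against Myf5, 535 to 5142 for the untransduced library, 0 to 6 for dose and 338 to 1552 for the MOI slope. The lowest came without 2x MyoD, without 2x Myf5, without either Myf5 library, without MOI 60, without either MyoD library and without MOI 120, and the highest without 1x GFP for the 3 comparisons with GFP, without 1x MyoD, without 1x Myf5 and without MOI 60 for the others.

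Signs of values that had not passed turned over 1x GFP alone for Actb with MyoD (-0.10) and for Acta2 (-0.045) and Actb (-0.17) with Myf5. On leaving out 1 library, log2 values ranged from -2.09 to 1.59 for Actc1 in the untransduced library, from -0.005 to 0.87, -0.117 to 0.99 and -0.028 to 0.11 for the dose effect of Acta2, Actg2 and Actg1, and from -0.16 to 0.31 for the MOI slope of Actg2. Actc1, Acta1 and Actg2 stayed called with MyoD against GFP under every alternative run, at 9.60 to 14.32, 7.48 to 9.45 and 0.97 to 1.95 on leaving out 1 library. The share results kept their direction under every alternative run, per transcript length included, and no p could pass. The ratios of Chimera over second-batch MyoD moved by less than their counting intervals under TMM scaling or without mitochondrial genes. DESeq2 size factors changed no call of an actin. The labels give no replicate numbers, and the shared doses of MyoD and Myf5 were used as a block in the fit with dose as a term. Depth limits Actc1 and Acta1 in the MOI libraries, where 0 to 3 counts were seen.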

Other observations

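Levels set across the separately made tables are descriptions. Second-batch 1x MyoD and first-batch 1x MyoD had like levels of Myod1, at 324 and 309 CPM, but 618 and 122 CPM of Actc1 and 41.1 and 27.2 CPM of Acta1. The summed skeletal muscle markers were 1508 CPM in second-batch 1x MyoD and 543 CPM in first-batch 1x MyoD.

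Among genes that act on actin, Lmod3 stood at 4.58 CPM with Chimera and 5.32 CPM with second-batch MyoD, Cap2 at 2.07 CPM with Chimera and 7.43 CPM with second-batch MyoD, and Fhl2 at 122 CPM with Chimera and 74.4 CPM with second-batch MyoD. Of these, chosen after their values were seen, Cap2 alone was past a 2-fold difference, and with 1 library on each side none was tested.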
